A study of Saccharomyces cerevisiae with 21 samples.

Results

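Inositol and phospholipid synthesis in the budding yeast Saccharomyces cerevisiae was followed through drying and rehydration by way of 9 genes: INO1, ITR1, CHO1, PSD1, CHO2, OPI3, INO2, INO4 and OPI1. They were picked by gene symbol on the array's annotation, and each was read by 1 probe set, so that 9 of the 9275 probe sets tested, and 9 of 5656 named genes, are described. RNA was taken from the diploid laboratory strain BY4743. By its published genotype it carries deletions in HIS3, LEU2 and URA3 on both copies and 1 deleted copy each of LYS2 and MET15. Every group shares these deletions. Cells were grown in rich glucose medium (YPD) at 30 degrees C to an absorbance of 0.8, spun down and resuspended in the same medium diluted 20-fold at 22 to 25 degrees C. Control cells were an aliquot taken at that point. The other groups were cells 50% dry after 18 h of drying in glass dishes of 15 ml each, dry cells (42 h of drying, then 72 h held at 20% relative humidity), and dry cells put back into diluted medium for 15, 45, 90 or 360 min, when 4 dishes were pooled. Each of the 7 groups had 3 arrays, 21 in all. The labels do not say whether replicates were separate cultures, so p-values measure only the spread between these samples.

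In yeast, inositol for membranes is either made inside the cell from glucose 6-phosphate or taken up from the medium. Phosphatidylserine, phosphatidylethanolamine and phosphatidylcholine are made one from the other along a chain that starts at CDP-diacylglycerol. The genes of both branches are read by the activator pair Ino2 and Ino4 and held down by the repressor Opi1, which binds phosphatidic acid at the endoplasmic reticulum while inositol is scarce and moves to the nucleus when inositol is plentiful. INO1 is the textbook case of this control.

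Signals are the deposited probe-set intensities on a linear scale. Differences are on the scale of log2(signal + 17.74), quantile normalized, and carry the standard error of a limma fit over the 21 arrays (3 per group), with a p-value adjusted by the Benjamini-Hochberg method over all 9275 probe sets. A gene was said to rise or fall where that adjusted p was under 0.05 and the change at least 2-fold, that is 1 on the log2 scale. The median deposited signal ran from 141.2 to 207.3 between arrays. Over all probe sets, replicate arrays correlated at 0.967 to 0.977 at 360 min, against 0.984 to 0.992 in the remaining groups, and since the fit pools the spread over all groups, its standard errors can understate the spread at 360 min. URA3 gave at most 5.8 on any array and the 3 LEU2 probe sets at most 107.5, while the HIS3 probe sets reached 874.5 and 226.6. The deletion in this strain takes out only part of HIS3, and whether the remainder gives these signals was not tested. ACT1, whose 3' minus 5' log2 difference in signal reflects RNA quality, averaged -0.57 in control cells, 0.76 when cells were 50% dry, 0.94 when dry, 1.28 at 15 min, 1.79 at 45 min, 2.24 at 90 min and 2.71 at 360 min. SRB4 averaged 1.0 in control cells, 1.61 in dry cells, 2.65 at 90 min and 2.36 at 360 min on the same measure, and SPT15 1.48, 1.05, 2.18 and 2.74, so not every step was upward. All 3 were higher at 360 min than in control cells, and their part in the results below was not tested. The control arrays had a hybridization run and a scan day to themselves, and so had each of 90 and 360 min a run, on a scan day those groups shared. Dry and rehydrated cells differed from 50% dry cells both in hours of drying and in storage, and these cannot be told apart. Cells also differed from control in their time in diluted medium. Run, day and time in this medium cannot be told apart from the state of the cells in any comparison with control. The same holds for run and day in those of 90 or 360 min with dry cells and of 90 with 45 min. For 360 against 90 min it holds for run.

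Of the 9 genes, 8 differed among the 7 groups by the moderated F test, where 82.5% of all probe sets did; the adjusted p of the 8 lay between 1.8e-15 and 1.28e-05. The exception was CHO2 (adjusted p = 0.259). With single arrays left out, 8 or 9 of the 9 genes differed, so this exception depended on the arrays kept. INO1 spanned 5.09 on the log2 scale between its lowest and highest group means, OPI1 3.33, INO2 3.21 and INO4 1.85. The 5 others spanned 0.41 to 1.55.

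**Figure D1:**
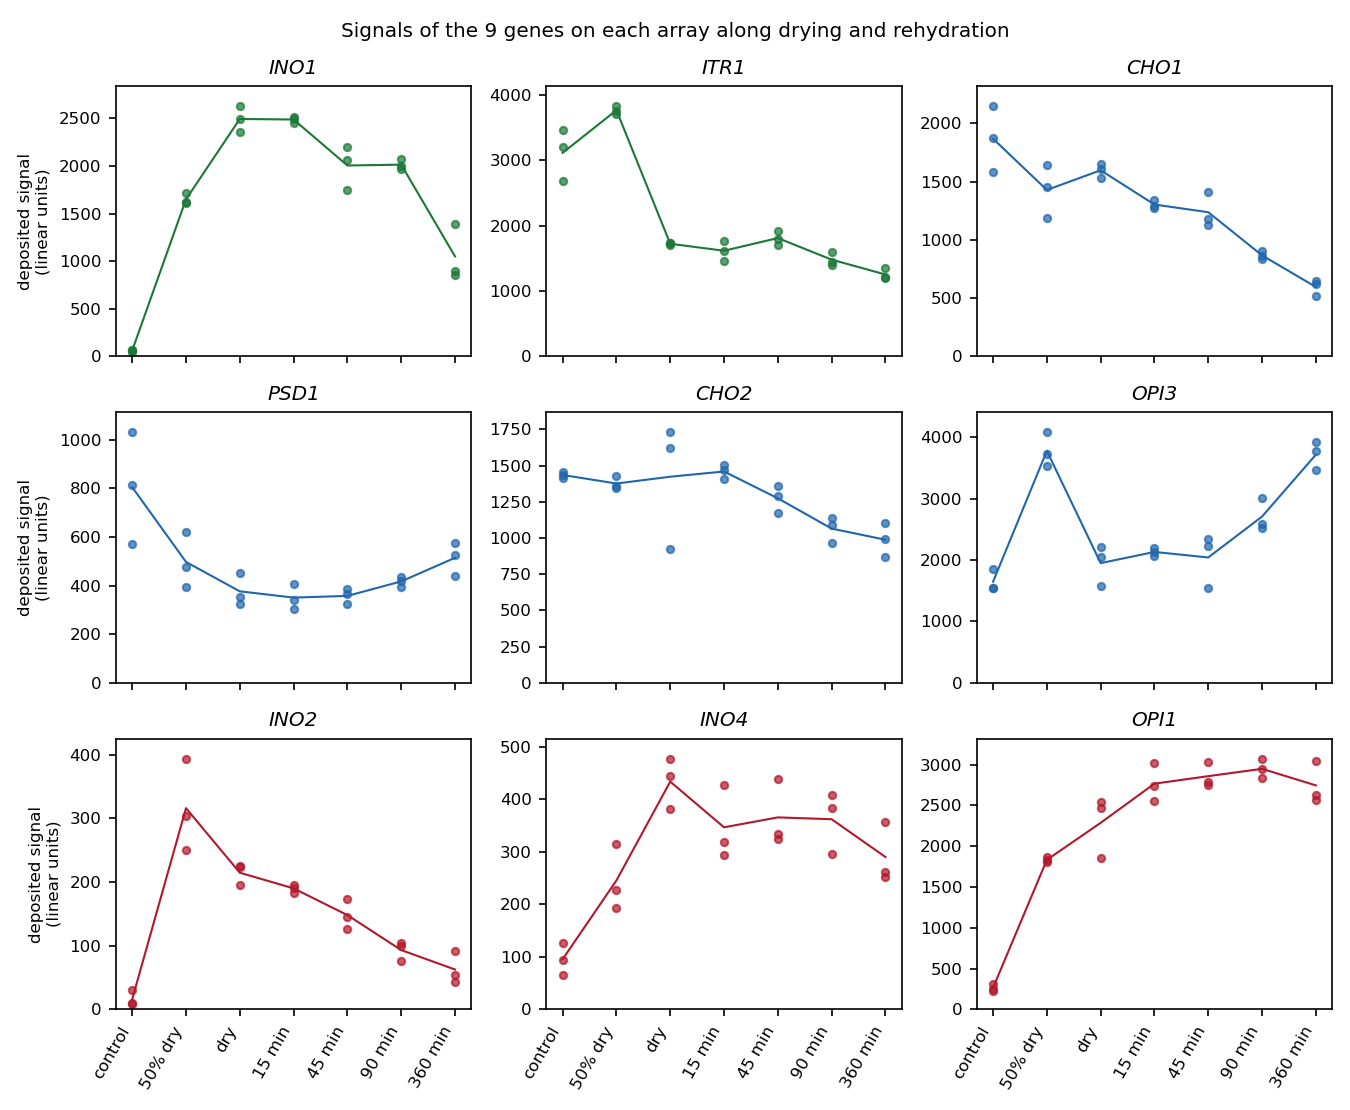
Deposited signal (linear, each panel from 0) of the 9 genes on each of the 21 arrays; points are arrays, lines join the group means of 3 arrays, and the stages run from control through drying to 360 min of rehydration. INO1 and OPI1 lie far lower in control cells than in every other group, and INO2 is lowest in control cells with 360 min next. ITR1 and OPI3 have their highest means in 50% dry cells, where the OPI3 arrays overlap those of 360 min. CHO1 ends at its lowest, between 515.1 and 650.9.

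INO1 encodes inositol-3-phosphate synthase, the rate-limiting enzyme of inositol synthesis. Its signals were 67.6, 48.7 and 71.9 in control cells, 1721, 1621 and 1610 in 50% dry cells, and 2493, 2361 and 2631 in dry cells. After rehydration they were 2493, 2456 and 2520 at 15 min, 2201, 1749 and 2067 at 45 min, 2000, 1969 and 2077 at 90 min, and 857.9, 902.5 and 1393 at 360 min. All 18 arrays outside the control group lay above the 3 control arrays, and the 360 min arrays below those of every other dried or rehydrated group. INO1 rose by 4.39 ± 0.14 in 50% dry against control cells (adjusted p = 3.71e-15, limma) and by 5.09 ± 0.14 in dry against control cells (adjusted p = 3.27e-16). Dry cells lay above 50% dry cells by a further 0.71 ± 0.14 (adjusted p = 0.000528), short of the 2-fold minimum. INO1 fell by 1.18 ± 0.14 at 360 min against dry cells (adjusted p = 7.07e-07), and it was still 3.91 ± 0.14 above control at 360 min (adjusted p = 1.89e-14). In order of level, dry, 15 min, 90 min, 45 min and 50% dry cells followed each other with no adjusted p under 0.05 between neighbours, while 50% dry lay above 360 min by 0.48 (adjusted p = 0.00597). The fall at 360 min was -0.80 with median-centred arrays, where it missed the 2-fold minimum. The rises against control depend in size on the added value. Adding 1% of the median gave 4.7 when 50% dry, 5.41 when dry and 4.22 at 360 min. Adding 50% gave 3.52, 4.21 and 3.07.

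ITR1 encodes the major transporter that takes inositol up from the medium. Its signals were 3457, 2685 and 3196 in control cells, 3757, 3829 and 3709 in 50% dry cells, and 1727, 1708 and 1734 in dry cells. Rehydrated cells gave 1616, 1462 and 1769 at 15 min, 1798, 1707 and 1925 at 45 min, 1590, 1406 and 1445 at 90 min, and 1348, 1192 and 1220 at 360 min. Every array of the dry and rehydrated groups lay below every control and 50% dry array. In 50% dry against control cells the difference was 0.35 ± 0.13 (adjusted p = 0.0255, limma), under 2-fold, and 0.09 with median-centred arrays. ITR1 fell by 1.27 ± 0.13 in dry against 50% dry cells (adjusted p = 3.08e-07, limma), and the 1 dry array that shared a hybridization run with the 50% dry arrays gave -1.29. It fell by 1.20 ± 0.13 at 360 min against control (adjusted p = 8.3e-08). In dry against control cells the difference was -0.92 ± 0.13 (adjusted p = 3.19e-06), under 2-fold; it was -1.10 and passed without the second control array, and -1.07 and passed with median-centred arrays. From 45 min, dry, 15 min and 90 min to 360 min, in order of level, neighbours did not differ beyond their spread (adjusted p from 0.621 to 0.908).

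Between 50% dry and dry cells the genes of synthesis and uptake had opposite signs: INO1 stood higher in dry cells and ITR1 lower. Dry cells had also been stored for 72 h, so drying and storage cannot be told apart here. Levels of different probe sets cannot be set against each other, so the log2 ratio of INO1 to ITR1 was taken within each array and expressed as its change since the control mean. That change was 4.04 ± 0.24 (SD, n = 3) in 50% dry cells, 6.02 ± 0.06 in dry cells, 6.08 ± 0.12 at 15 min, 5.53 ± 0.13 at 45 min, 5.81 ± 0.10 at 90 min and 5.11 ± 0.39 at 360 min. Dry cells were above 50% dry cells by 1.98, and 360 min differed from dry cells by -0.91. The groups of each of these comparisons did not overlap, and the two-sided exact permutation p was 0.1 for each, the smallest that 3 arrays against 3 allow. The changes since control also depend in size on the added value, as those of INO1 do. This ratio and the next pair's were chosen after the signals had been seen.

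**Figure D2:**
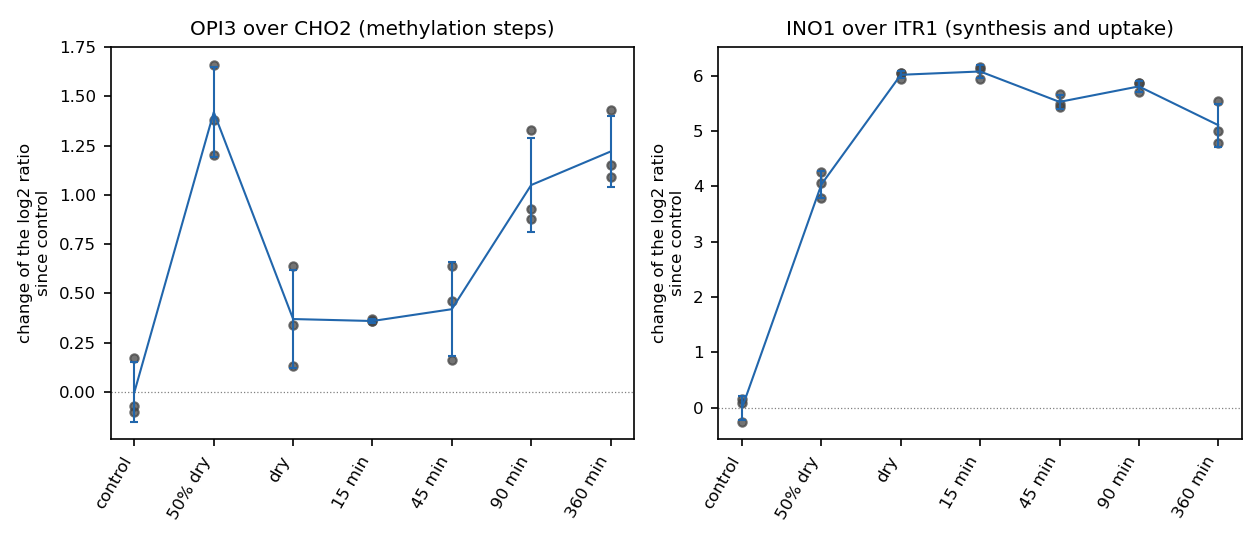
Change since the control mean of the log2 signal ratio within an array, for OPI3 over CHO2 (left) and INO1 over ITR1 (right); points are arrays, the line joins group means, and bars are SD of 3 arrays. OPI3 over CHO2 is high in 50% dry cells (1.42) and again at 90 min (1.05) and 360 min (1.22), and INO1 over ITR1 is highest at 15 min (6.08) and in dry cells (6.02).

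Of the 4 enzymes of the chain from CDP-diacylglycerol to phosphatidylcholine, 1 rose and none fell in 50% dry against control cells, where 13.1% of all probe sets rose and 13.9% fell, and 1 rose and 1 fell at 360 min against control, where 19.7% and 21.4% did. With 4 genes, no difference from those shares is read from these counts. CHO1 encodes phosphatidylserine synthase, which opens the chain. Its signals were 2149, 1581 and 1876 in control cells, 1189, 1645 and 1453 in 50% dry cells, and 1529, 1610 and 1654 in dry cells. They were 1345, 1270 and 1295 at 15 min, 1176, 1130 and 1408 at 45 min, 835.4, 903.3 and 864.4 at 90 min, and 623.8, 515.1 and 650.9 at 360 min. The control, 50% dry and dry arrays overlapped, while all 90 min and 360 min arrays lay below all earlier ones. CHO1 fell by 1.14 ± 0.12 at 360 min against dry cells (adjusted p = 2.4e-07, limma), which was -0.93 with median-centred arrays and so under 2-fold there, and by 1.29 ± 0.12 at 360 min against control (adjusted p = 2.03e-08). At 90 min against dry cells the difference was -0.83 ± 0.12 (adjusted p = 5.55e-05), under 2-fold. Before rehydration its differences were under 2-fold, with -0.32 ± 0.12 in 50% dry against control cells (adjusted p = 0.0343) and -0.14 ± 0.12 in dry against control cells (adjusted p = 0.325). Median-centred arrays gave -0.58 and -0.44 for them (adjusted p of 0.000377 and 0.00343).

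PSD1 encodes the mitochondrial phosphatidylserine decarboxylase, which makes phosphatidylethanolamine. Control cells gave 811.9, 572.2 and 1029, those 50% dry 477.6, 395.2 and 618.6, dry cells 354, 451.9 and 323.1, and cells at 360 min 526.6, 440.1 and 575.8. Between dry and 360 min, the 9 arrays of 15, 45 and 90 min ran from 303 to 436.4. By mean of normalized log2 values PSD1 was highest in control cells, followed by 360 min, and lowest in dry cells and at 15 min, which did not differ beyond their spread (adjusted p = 0.988). It fell by 1.15 ± 0.17 in dry against control cells (adjusted p = 7.99e-06, limma); the control arrays spread widely, and without the third of them the difference was -0.98, under 2-fold. PSD1 differed at 360 min from dry cells by 0.89 ± 0.17 (adjusted p = 0.000208), under 2-fold, by 1.03, past it, without the second dry array, and by 0.44 with the deposited scaling (adjusted p = 0.0481). Against control, the 360 min difference was -0.27 ± 0.17 (adjusted p = 0.174), and the arrays overlapped, but with the deposited scaling it was -0.60 (adjusted p = 0.00757).

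CHO2 encodes the methyltransferase of the first step from phosphatidylethanolamine to phosphatidylcholine. Control arrays gave 1436, 1453 and 1417, those of 50% dry cells 1345, 1426 and 1359, those of dry cells 1728, 1619 and 922, and those of 360 min 868.8, 989.7 and 1105. The arrays of 15 to 90 min ran from 968.9 to 1504. CHO2 passed in none of the 9 planned comparisons by limma, and its differences from control were 0.04 ± 0.17 when 50% dry, 0.03 ± 0.17 when dry and -0.20 ± 0.17 at 360 min (adjusted p of 0.852, 0.9 and 0.286). The 360 min arrays nonetheless all lay below the control arrays. With the deposited scaling the 360 min difference from control was -0.54. Apart from left-out arrays, its lowest adjusted p over the alternatives was 0.00505 (limma). The third dry array stood far below the others of its group, so the value of CHO2 in dry cells rests on that array. Dry against 50% dry cells was -0.02 with it and 0.29 without it (adjusted p = 0.0301, limma).

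OPI3 encodes the methyltransferase that completes the remaining methylation steps. Signals were 1548, 1851 and 1541 in control cells, 4077, 3527 and 3728 in 50% dry cells, and 2057, 2210 and 1581 in dry cells. They were 2138, 2191 and 2067 at 15 min, 1541, 2235 and 2349 at 45 min, 2517, 2595 and 3013 at 90 min, and 3914, 3459 and 3774 at 360 min. The 50% dry and 360 min arrays were the high ones, each above all arrays of the other groups, and the dry arrays overlapped those of control. OPI3 rose by 1.46 ± 0.15 in 50% dry against control cells (adjusted p = 1.11e-07, limma), which was 1.00, just short of 2-fold, with median-centred arrays. It fell by 1.06 ± 0.15 in dry against 50% dry cells (adjusted p = 2.13e-05). That fall stood close to the 2-fold minimum and was -0.96 as deposited and -0.99 with median-centred arrays. It was -0.98 without the third 50% dry array and -0.89 without the third dry array. With the hybridization run as a block it was -0.95, which rests on the 1 dry array that shared a run with the 50% dry arrays. OPI3 rose by 1.02 ± 0.15 at 360 min against control (adjusted p = 7.84e-06), again near the minimum. This rise was 0.98 with 50% of the median added. It was 0.97 to 0.99 when the first or the third control array, or the first or the third 360 min array, was left out. The difference of 360 min from dry cells was 0.62 ± 0.15 (adjusted p = 0.00188), under 2-fold, and 1.40, past it, with median-centred arrays. With median-centred arrays the rise at 360 min against control was 1.41, larger than that of 50% dry cells.

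The genes of the consecutive methylation steps were also set against each other within each array. Relative to the control mean, the log2 ratio of OPI3 to CHO2 had changed by 1.42 ± 0.23 (SD, n = 3) in 50% dry cells, 0.37 ± 0.25 in dry cells, 0.36 ± 0.01 at 15 min, 0.42 ± 0.24 at 45 min, 1.05 ± 0.24 at 90 min and 1.22 ± 0.18 at 360 min. It was lower in dry than in 50% dry cells (by -1.05) and higher at 360 min than in dry cells (by 0.85). Both comparisons were without overlap, with a two-sided exact permutation p of 0.1, the smallest possible.

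All 3 regulators rose in 50% dry against control cells, in dry against control cells, and at 360 min against control, where 13.1%, 17.5% and 19.7% of all probe sets rose. INO2 encodes 1 partner of the activator pair, and it is itself a target of the pair. Its signals were 29.7, 9.8 and 8.6 in control cells, 250.9, 303.9 and 393.3 in 50% dry cells, 224.7, 195.2 and 224 in dry cells, and 182.9, 195.9 and 191.3 at 15 min. They were 125.9, 173.3 and 144.7 at 45 min, 75.9, 103.5 and 99.9 at 90 min, and 43.5, 90.9 and 53.3 at 360 min. The highest arrays were those of 50% dry cells and the group mean was lower at each later stage, yet every array outside control lay above every control array. INO2 rose by 3.21 ± 0.24 in 50% dry against control cells (adjusted p = 9.84e-10, limma). The control signals lay near the added value, and the size depends on it: adding 1% of the median gave 4.15 and adding 50% gave 1.85. INO2 fell by 1.35 ± 0.24 at 360 min against dry cells (adjusted p = 9.31e-05) and was 1.29 ± 0.24 above control at 360 min (adjusted p = 9.36e-05). With 50% of the median added these were -0.85 and 0.55, both under 2-fold, and without the second 360 min array, the brightest of that group, the difference from control was 0.96.

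INO4 encodes the other partner. It gave 65, 94.3 and 127.1 in control cells, 227.8, 192.7 and 315.6 in 50% dry cells, and 476.8, 443.5 and 380.6 in dry cells. The 12 rehydrated arrays ran from 252.1 to 438.7, with 252.1, 261.4 and 356.7 at 360 min. Control, 50% dry and dry arrays formed 3 steps without overlap. INO4 rose by 1.07 ± 0.21 in 50% dry against control cells (adjusted p = 0.000203, limma), by 1.85 ± 0.21 in dry against control cells (adjusted p = 2.24e-07) and by 1.76 ± 0.21 at 360 min against control (adjusted p = 3.74e-07). The first of these lay close to the minimum and was 0.74 with 50% of the median added, 0.84 without the first control array and 0.91 without the third 50% dry array. INO4 differed at 360 min from dry cells by -0.09 ± 0.21 (adjusted p = 0.74), and by -0.56 with the deposited scaling (adjusted p = 0.0268). Among dry, 90, 360, 45 and 15 min, in order of level, no neighbours differed beyond their spread.

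OPI1 encodes the repressor of the pathway. Its signals were 309.1, 230 and 254.4 in control cells, 1827, 1806 and 1868 in 50% dry cells, and 2464, 2539 and 1859 in dry cells. They were 2549, 3019 and 2733 at 15 min, 3039, 2756 and 2782 at 45 min, 3070, 2833 and 2945 at 90 min, and 3041, 2630 and 2566 at 360 min. All arrays outside control lay above control by a wide gap. OPI1 rose by 2.69 ± 0.12 in 50% dry against control cells (adjusted p = 3.22e-13, limma), by 3.08 ± 0.12 in dry against control cells (adjusted p = 2.7e-14) and by 3.14 ± 0.12 at 360 min against control (adjusted p = 3.12e-14). From dry cells to 360 min OPI1 differed by 0.06 ± 0.12 (adjusted p = 0.69), and by -0.12 without the third dry array, which was the lowest of its group. This value depends on the scaling: it was 0.27 as deposited and 0.74 with median-centred arrays (adjusted p = 3.41e-05), under 2-fold in each.

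Over the 21 arrays INO1 correlated with OPI1 at Pearson r = 0.96, with INO4 at 0.86 and with INO2 at 0.83. It correlated with PSD1 at -0.77. The arrays share their groups, and after each group's mean was taken off the values were -0.09, 0.21, -0.13 and 0.27.

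**Figure D3:**
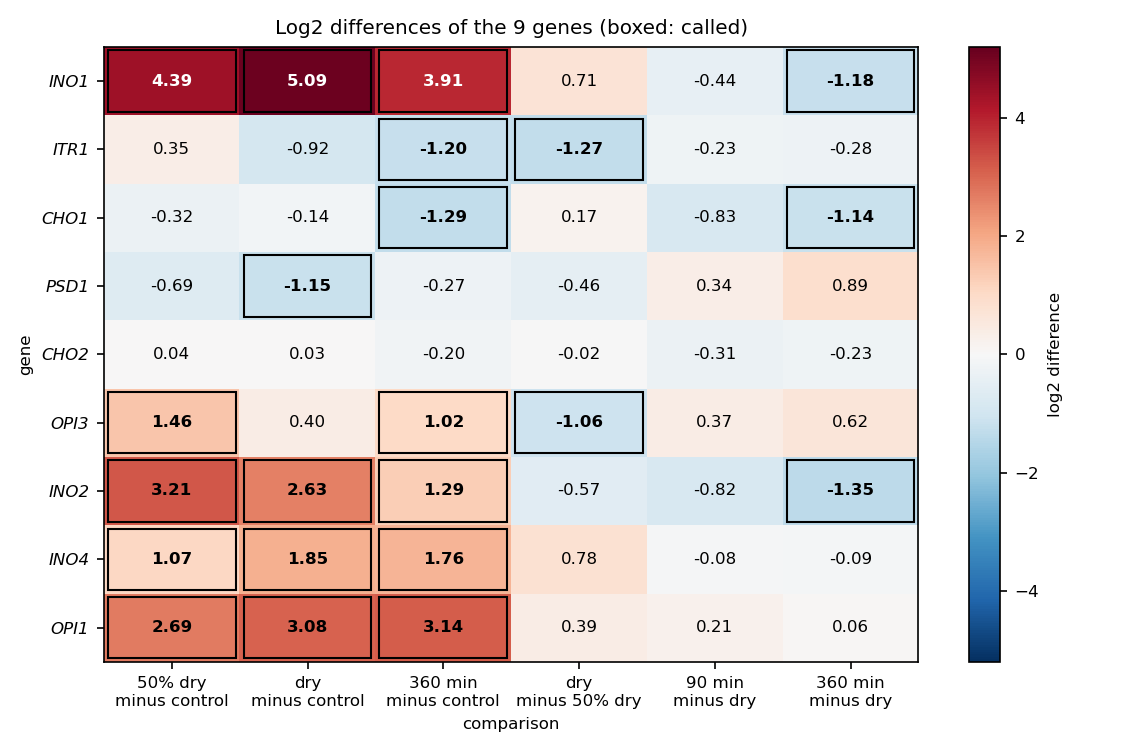
Log2 differences of the 9 genes in 6 comparisons; boxed bold values passed (adjusted p under 0.05 and at least 2-fold, limma, 3 arrays per group), and colour runs from blue (lower) to red (higher). The regulators and INO1 are boxed in every comparison with control, and CHO2 in none.

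Counted together, 5 of the 9 genes rose in 50% dry against control cells (INO1, OPI3, INO2, INO4 and OPI1), where 13.1% of all probe sets rose and 13.9% fell, and the other 4 did not pass in either direction. The median difference of the 9 was 1.07, against -0.02 over all probe sets. In dry against control cells 4 rose and 1 fell, PSD1, where 17.5% of all probe sets rose and 17.5% fell. The step from 50% dry to dry cells held 2 falls, those of ITR1 and OPI3, and no rise, against 5.05% of all probe sets lower and 3.06% higher. The median over the 9 in that step was -0.02, against 0.02 over all probe sets. At 360 min against control 5 rose and 2 fell, CHO1 and ITR1, where 19.7% and 21.4% of all probe sets did. These comparisons share the same control arrays, so their counts are not independent of each other. The 9 genes were also chosen with earlier results of these data known, so the counts only describe them.

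No member passed by limma at 15 min against dry cells, at 45 against 15 min or at 90 against 45 min, where 0.119%, 0.0755% and 0.173% of all probe sets were called; at an unadjusted p under 0.05 the members numbered 2, 1 and 4. At 360 against 90 min again none of the 9 passed (4 at an unadjusted p under 0.05), while 6.89% of all probe sets were called; INO1 came closest with -0.75 ± 0.14 (adjusted p = 0.000337). Within hybridization runs the small early difference of INO1 at 15 min against dry cells was -0.06, from 2 against 2 arrays. At 45 against 15 min it was -0.40, from 3 arrays against 1. Over all arrays, which include these, the values were -0.06 and -0.39. A comparison of 90 min with dry cells, added after the data were seen, called none of the 9 and 4.65% of all probe sets. By limma 4 members had an unadjusted p under 0.05. CHO1 differed by -0.83 ± 0.12 (adjusted p = 5.55e-05), INO2 by -0.82 ± 0.24 (adjusted p = 0.0142) and INO1 by -0.44 ± 0.14 (adjusted p = 0.0229). CHO1 was -0.87 with the deposited scaling and -0.63 with median-centred arrays. The other differences depend more on the scaling. INO2 was -1.07 and passed with the deposited one (adjusted p = 0.00125), and INO1 was -0.06 with median-centred arrays (adjusted p = 0.781). Over the whole of rehydration, 360 min against dry cells, 3 of 9 fell, namely INO1, CHO1 and INO2, and none rose, against 11.7% and 11.4% of all probe sets. The median of the 9 was -0.23. This count depends on the scaling. With median-centred arrays INO1 (-0.80) and CHO1 (-0.93) missed the 2-fold minimum, INO2 still fell (-1.11) and OPI3 rose (1.40). Without the 2-fold minimum, 8 of the 9 had an adjusted p under 0.05 in 50% dry against control cells (57.4% of all probe sets), 7 in dry against control (64.4%), 6 in dry against 50% dry (35.1%), 5 at 360 min against dry (58.9%) and 7 at 360 min against control (70.7%). In the steps of rehydration the counts were 0 at 15 min against dry (0.776%), 0 at 45 against 15 min (1.02%), 1 at 90 against 45 min (4.7%), 2 at 360 against 90 min (40.3%) and 3 at 90 min against dry (29.1%).

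Genes next to the members on the chromosome, 1 on each side in RefSeq's order, were also read, a choice made after the data had been seen. Among the 10 neighbours of the 5 genes that rose in 50% dry against control cells, none was called by limma in that comparison, where 26.9% of all probe sets were, though 6 had an unadjusted p under 0.05, and their differences ran from -0.68 to 0.79. INO1's neighbours are VPS35, of the retromer that returns proteins from endosomes, with -0.25 ± 0.10, and SNA3, of endosomal sorting, with 0.79 ± 0.12. Of the 8 neighbours of the other 4 members, 3 were called: both of CHO1's (GAL83 with -1.03 ± 0.14 and the noncoding gene YNCE0013W with -1.38 ± 0.25) and MTR3, next to CHO2, with 1.33 ± 0.30. With so few neighbours, no difference from the share of all probe sets is read from these counts.

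By profile, the 5 genes closest to INO1 over the 21 arrays were ATG39 (a receptor for autophagy of the nucleus), ATH1 (acid trehalase), PXA1 (a peroxisomal transporter of fatty acids), BOP2 and PRM4. Their Pearson r with INO1 lay between 0.991 and 0.992. The pattern was not particular to these genes: among the 9275 probe sets, 212 others correlated with INO1 above 0.95. Group means were not taken off here, so these correlations include the differences between groups. ATG39 averaged 130.9 in control cells, 3132 when cells were 50% dry, 4330 when dry and 3081 at 360 min.

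The rest of phospholipid metabolism was read through 49 other genes in 7 lists, all of them measured. In 50% dry against control cells 4 rose and 5 fell, 40 passed in neither direction, and the median was -0.05; over all probe sets 13.1% rose and 13.9% fell. In dry against control cells 11 rose, 8 fell and 30 did neither (median 0.08, against 0.01 over all probe sets, of which 17.5% rose and 17.5% fell). At 360 min against dry cells 3 rose, 8 fell and 38 did neither (median -0.02), where 11.4% of all probe sets rose and 11.7% fell. Against control, 11 rose, 11 fell and 27 did neither at 360 min (median -0.32), where 19.7% and 21.4% of all probe sets did. Counts within the single lists below stand against these same shares. The lists are small, and no difference from the shares is read from their counts.

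Of the 7 other inositol and phosphatidylinositol genes, 2 rose and 3 fell in dry against control cells. PIS1, for the synthase that joins inositol to CDP-diacylglycerol, averaged 771.4 in dry cells and 3738 in control cells and fell by 2.54 ± 0.08 (adjusted p = 4.87e-15, limma). It was still lower at 360 min than in control (-1.99 ± 0.08). INM1 and INM2 encode inositol monophosphatases, which release free inositol from the product of Ino1, and they moved in opposite ways: INM1 fell by 1.66 ± 0.19 in dry against control cells and INM2 rose by 1.45 ± 0.07 (adjusted p of 3.03e-07 and 6.83e-13). GIT1, for uptake of glycerophosphoinositol, rose by 1.53 ± 0.13 in dry against 50% dry cells (adjusted p = 3.61e-08) and fell by 1.46 ± 0.13 at 360 min against dry cells (adjusted p = 1.95e-08).

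Phosphatidic acid is the lipid that holds Opi1 outside the nucleus. Of the 12 genes of phosphatidic acid and CDP-diacylglycerol, 3 rose and 1 fell in dry against control cells. PAH1, for the phosphatidate phosphatase that removes this lipid, averaged 1779 in 50% dry cells and 337 in control cells and rose by 2.32 ± 0.13 (adjusted p = 2.13e-11, limma). GPT2, for an acyltransferase that starts its synthesis, rose by 1.49 ± 0.12 in the same comparison (adjusted p = 5.33e-09). TAM41, the mitochondrial CDP-diacylglycerol synthase gene, rose by 1.56 ± 0.19 in dry against control cells and fell by 1.52 ± 0.19 at 360 min against dry cells. CDS1, for the synthase of the endoplasmic reticulum, fell by 1.24 ± 0.16 in dry against 50% dry cells (adjusted p = 7.26e-06).

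The Kennedy pathway makes phosphatidylcholine and phosphatidylethanolamine from free choline and ethanolamine. Of its 7 genes, 1 rose and 2 fell in dry against control cells. EPT1, for ethanolamine phosphotransferase, fell by 2.49 ± 0.14 (adjusted p = 6.64e-12, limma), and its dimmer second probe set gave -2.03 ± 0.24. CKI1, for choline kinase, fell by 1.41 ± 0.15 (adjusted p = 9.21e-08), and EKI1, for ethanolamine kinase, rose by 1.06 ± 0.12 (adjusted p = 3.1e-07).

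Of the 7 other mitochondrial and vacuolar phospholipid genes, 1 rose and 1 fell at 360 min against dry cells. The riser was PSD2, for the second phosphatidylserine decarboxylase, outside mitochondria, by 1.60 ± 0.11 (adjusted p = 8.58e-10, limma), with averages of 656.8 at 360 min and 280.4 in dry cells. UPS1, for a carrier of phosphatidic acid between the mitochondrial membranes, fell by 1.71 ± 0.14 (adjusted p = 4.6e-09). GEP4 and PGS1 both act in cardiolipin synthesis. GEP4 fell by 1.30 ± 0.33 in dry against 50% dry cells (adjusted p = 0.0048, limma). Its signals spread widely, averaging 207.8 (SD 80.99) when 50% dry and 81.3 (SD 47.57) when dry. PGS1 rose by 1.53 ± 0.23 at 360 min against control (adjusted p = 6.65e-06). The second PGS1 probe set gave 0.72 ± 0.12 there.

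Phospholipases take the same lipids apart. Of the 5 read, 3 rose in dry against control cells: PLB3, a phospholipase B gene, by 2.19 ± 0.15 (adjusted p = 2.39e-10, limma), PLB2 by 1.20 ± 0.11 and SPO14, for phospholipase D, by 1.19 ± 0.11. PLB1 at 360 min against dry cells fell by 1.21 ± 0.09 and SPO14 by 1.10 ± 0.11, while PLB3 was still 2.84 ± 0.15 above control at 360 min (adjusted p = 5.37e-12).

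The fatty acid synthesis genes ACC1, FAS1 and FAS2 carry the same kind of control by Ino2 and Ino4. Their brightest probe sets differed in dry against control cells by 0.08, 0.15 and 0.08, with none called by limma (adjusted p of 0.634, 0.545 and 0.587). FAS1 and FAS2 each had 8 probe sets, and these disagreed: in that comparison they ran from -2.81 to 0.76 for FAS1 and from -2.62 to 0.08 for FAS2, so no direction is given for them. Among the 8 other regulators, 2 rose and 1 fell in dry against control cells. UME6, for a repressor that also acts on INO1, rose by 1.24 ± 0.25 (adjusted p = 0.000254, limma) and was 2.73 ± 0.25 above control at 360 min. REG1, of the phosphatase that opposes the Snf1 kinase, rose by 1.24 ± 0.10 in dry against control cells. SNF1, for that kinase, fell by 1.79 ± 0.15 at 360 min against dry cells (adjusted p = 1.01e-08). HAC1, the factor of the unfolded protein response, fell by 1.12 ± 0.26 in dry against control cells (adjusted p = 0.000954), but its 5 probe sets ran from -1.41 to 0.26 there.

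**Figure D4:**
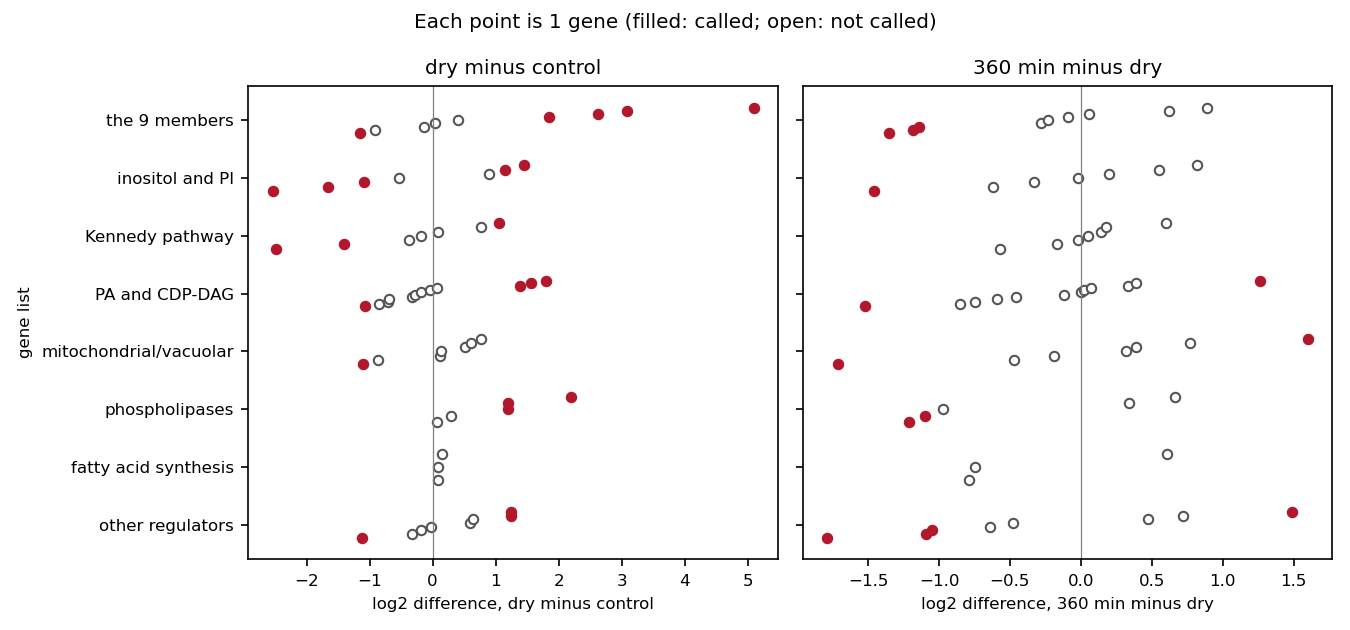
Log2 difference of each gene in dry minus control cells (left) and 360 min minus dry cells (right), for the 9 members and the 7 other lists (PI is phosphatidylinositol, PA phosphatidic acid, CDP-DAG CDP-diacylglycerol); each point is 1 gene, filled where called. On the left the 4 members that rose reach 5.09, while the other lists lie between -2.54 and 2.19.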

How the data were processed

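Per the labels, the authors read the array images with Affymetrix's GeneChip software; a signed rank test and a linear mixed model in 2 steps then gave 1 signal per probe set. For versions, scaling and build the labels have no entry. The deposited values are linear probe-set intensities. Their 2% trimmed means lay between 498.2 and 501.4, so arrays had been scaled. Of 9335 probe sets, 60 control sets were left out. Symbols came from the platform annotation, updated through RefSeq. Here 10% of the median of all tested signals (177.4) was added, log2 taken, arrays quantile normalized, and limma 3.58.1 (R 4.3.3) fitted to 7 group means with a variance trend (14 residual degrees of freedom), procedure tested on simulated data. The brightest probe set stood for a gene. All 9 members are named; from each other list, up to 4 called genes with the largest differences. Members and lists were chosen with earlier results of these data known. Run records gave 6 hybridization runs and 3 scan days. Tables used Python 3.11.15, pandas 2.3.3 and scipy 1.17.1. Alternatives were other added values (1%, 50%), scalings, no fold minimum, no trend, no dim probe sets, the replicate number or run as a block, only the arrays compared, gene means, and each array left out. With 3 arrays per group, their number limits precision. No sequences are shown.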

Additional observations from a re-analysis of the deposited data

How the results depend on the processing

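Of the 90 values of the 9 genes in 10 comparisons, 22 were called, and none of these 22 changed sign under any alternative run; the calls that did not hold are given beside the genes. The number of members called in dry against 50% dry cells was 1 in place of 2 with the deposited scaling, with median-centred arrays and with the hybridization run as a block, and lay between 1 and 2 with single arrays left out (1 without the third 50% dry or the third dry array), as OPI3 sat close to the 2-fold minimum. With no fold minimum the members called were 8 in 50% dry against control, 6 in dry against 50% dry, 1 at 90 against 45 min, 2 at 360 against 90 min, 5 at 360 min against dry and 3 at 90 min against dry; the deposited scaling called 1 in the last. Of the 49 other genes, no fold minimum called 35 in 50% dry against control, 33 in dry against control, 24 in dry against 50% dry, 23 at 360 against 90 min, 34 at 360 min against dry, 40 at 360 min against control and 17 at 90 min against dry. Adding 50% of the median called 2 in dry against 50% dry and 0 at 360 against 90 min. There the deposited scaling called 4, median-centred arrays 2, and single arrays left out 1 to 2 (2 without the third 360 min array). At 90 min against dry, 1 was called by the deposited scaling and 1 by adding 1% of the median, and 0 to 1 with single arrays left out (1 without the third dry or the third 90 min array). The cause of these changes was not tested.

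Signs turned only in values that were not called, of 0.28 or less. Median-centred arrays gave 0.12 for INO1 in 15 min against dry, 0.02 for ITR1 in 15 and in 90 min against dry, 0.01 for ITR1 in 360 min against dry, 0.02 for CHO1 and for OPI3 in 45 against 15 min, 0.02 for PSD1 in 15 min against dry, -0.25 and -0.29 for CHO2 in 50% dry and in dry against control, and 0.15 and 0.12 for OPI1 in 45 against 15 and in 360 against 90 min. The deposited scaling gave -0.06 for CHO2 in 50% dry and in dry against control, -0.11 for CHO2 in 360 against 90 min, -0.01 for INO4 in 90 against 45 min and 0.05 for OPI1 in 45 against 15 min. The run block gave 0.03 for PSD1 in 15 min against dry and 0.34 for CHO2 in dry against 50% dry. In dry against 50% dry the run block rests, for every gene, on the 1 dry array that shared a run with the 50% dry arrays. With single arrays left out, CHO2 ran from -0.15 to 0.34 in dry against control, -0.19 to 0.29 in dry against 50% dry, -0.21 to 0.27 in 15 min against dry and -0.00 to 0.16 in 360 against 90 min. INO4 ran from -0.07 to 0.14 in 90 against 45 min, -0.17 to 0.07 in 360 against 90 min and -0.16 to 0.03 in 90 min against dry, OPI3 from -0.09 to 0.20 in 15 min against dry and -0.23 to 0.07 in 45 against 15 min, and OPI1 from -0.00 to 0.05 in 90 against 45 min and -0.12 to 0.16 in 360 min against dry. The others were INO1 (-0.09 to 0.08 in 90 against 45 min), ITR1 (-0.09 to 0.01 in 360 against 90 min), CHO1 (-0.14 to 0.01 in 45 against 15 min) and PSD1 (-0.11 to 0.12 in 15 min against dry).

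Median centring moved the median of all probe sets to 0.27 in 360 min against dry and -0.15 in 50% dry against control, and the deposited scaling to -0.20 in the first. Replicate numbers did not pair the arrays: same-numbered deviations correlated at -0.00971 on average, 5 of 63 pairs were above 0.1, and 7 of 21 arrays correlated best with their own number. With the replicate block INO1 in 50% dry against control stayed at 4.39, and no member's call changed. Signals near the added value, as for INO2 in control cells, limit what its fold changes can show.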
